A study of Homo sapiens with 12 samples.

Results

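The 48 protein-coding genes whose symbols start with NDUF were followed through 12 RNA-seq libraries of DU145 cells, out of 28747 gene identifiers in the count table. They were taken by symbol and comprise 37 nuclear-encoded subunits of respiratory complex I, 8 assembly factors of the NDUFAF series and 3 genes that carry the name without being subunits of the enzyme (NDUFA4, NDUFA4L2 and the readthrough gene NDUFC2-KCTD14). DU145 is an established human prostate cancer line that lacks androgen dependence. The study asked how the σ1 receptor (σ1R) bears on cancer stem cells and mitochondria, and compared cells infected with lentiviral particles carrying a hairpin against σ1R (shSigma) with cells carrying a control hairpin (shCtrl). Both kinds of cells had been selected with puromycin, and each was grown either attached to plastic in serum-containing medium (adherent) or as tumor spheres in serum-free medium with B27, insulin, FGF2 and EGF on non-adhesive plates. The 4 groups held 3 libraries each, called independent replicates in the labels. All came from 1 cell line, and the sources used here do not say which hairpin the sequenced shSigma cells carried. The media, the attachment and the time in culture differed together between adherent cells and spheres, so their parts in a difference between cultures cannot be told apart.

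Complex I is the largest enzyme of the mitochondrial respiratory chain. It takes electrons from NADH in the N module at the tip of the arm that reaches into the matrix, passes them along iron-sulfur clusters to ubiquinone in the Q module, and pumps protons in a membrane arm with a proximal and a distal part. Mitochondrial DNA encodes the central subunits of the membrane arm, whereas the NDUF genes encode the remainder, and assembly factors join the preformed modules without staying in the finished enzyme. NDUFA4 was named after complex I but is a component of cytochrome c oxidase.

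The promoters of several members carry the exact 8-letter core GCGCATGC, part of the site bound by NRF1, a transcription factor known for its control of nuclear respiratory genes. The promoter table (RefSeq, GRCh38.p14, 250 bases before to 50 after each start) matched 40 of the 48 members. On either strand, 7 of these 40 (17.5%) held the core, against 5.46% of 11159 promoters of tested genes and 3.27% of all 27305 promoters. In 3 of the 7 the matches on both strands overlapped. The stretches around it are shown for 5 members that differed in their response to the hairpin, with the matched letters in capitals and 5′ to 3′ in the direction of the gene. They lie at chr20:13784978-13785041 on the plus strand (NDUFAF5), chr3:120596131-120596194 plus (NDUFB4), chr19:1383788-1383851 plus (NDUFS7), chr5:1801315-1801378 plus (NDUFS6) and chr9:122159766-122159829 minus (NDUFA8).
NDUFAF5: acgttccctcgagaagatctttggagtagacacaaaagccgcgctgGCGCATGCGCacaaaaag
NDUFB4: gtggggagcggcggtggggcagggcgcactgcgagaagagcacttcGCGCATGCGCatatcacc
NDUFS7: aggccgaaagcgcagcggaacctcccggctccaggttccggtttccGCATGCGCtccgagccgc
NDUFS6: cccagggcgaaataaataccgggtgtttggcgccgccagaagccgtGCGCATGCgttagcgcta
NDUFA8: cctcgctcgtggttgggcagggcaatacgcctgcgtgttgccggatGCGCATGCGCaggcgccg
After the knockdown in spheres NDUFAF5 and NDUFB4 fell, while NDUFS6 and NDUFA8 did not pass the test. NDUFS7 was called higher narrowly, and many alternative settings lost that call. The core of the YY1 site, AANATGGC, was found in 12 of the 40 (30%) against 9.62% of promoters of tested genes, and in 10 of those 12 it began 8 to 42 bases past the start. The ETS core CCGGAAGT was held by 2 of the 40 (5%, against 8.36%), TATAAA by 3 (7.5%, against 5.61%) and CCAAT by 11 (27.5%, against 36.2%). These are matches of letters, not sites shown to be bound.

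Library totals ran from 16472722 to 26957777 counts. Values are given as CPM, the usual scaling of counts by library size, here with TMM factors, and a gene was called when its Benjamini-Hochberg adjusted p from edgeR's quasi-likelihood test was under 0.05. EPCAM, CDH1, KRT8 and KRT18, markers of epithelial cells, were detected in every library (at least 223 counts), and KLK3 and KRT5 had at most 2 counts. CDH1 and EPCAM were called lower in shSigma cells of both cultures (CDH1 by -1.23 and -4.71 log2, EPCAM by -2.99 and -3.31). KRT8 and KRT18 were called higher in adherent shSigma cells (0.76 and 0.58 log2) and lower in shSigma spheres (-0.21 and -0.44). The part of these differences in the results below was not tested. PECAM1, PTPRC and DCN, markers of endothelium, leukocytes and stroma, had at most 7 counts. Of the other 3 genes of that list VWF and CD14 had at most 19 counts, and COL1A1 had 67 to 494, with a called log2 fold change of -0.92 in shSigma spheres.

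Of the 48 members, 45 passed the filter on low counts in the adherent comparison and 44 in the others. NDUFS1, the largest core subunit of the N module, NDUFA6 and NDUFC2-KCTD14 were listed at 0 in all 12 libraries. UQCRC2 of complex III and ATP5IF1, the inhibitor of ATP synthase, were listed at 0 in the same way, so these zeros give no expression level. NDUFA3 had 6 to 13 counts per library and passed the filter only in the adherent comparison. NDUFA7, which shares its locus with a readthrough transcript and RPS28, had 12 to 27 counts, and its fold changes rest on those few reads. The annotation lists pseudogenes for 21 of the 48 members, with 12 each for NDUFA5 and NDUFB4, and how reads shared with them were counted is not stated.

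The levels of the members spread widely. On the RPKM scale, which corrects for the length of the merged exons and for library size, and averaged over the 12 libraries, the median member was at 10.3 RPKM, and the range reached from 0 to 151 RPKM at NDUFS5. The distal membrane arm had a median of 20.0 RPKM (11 genes), the proximal arm 10.1 (9 genes), the N module 9.52 (10 genes), the Q module 4.2 (6 genes) and the NDUFAF assembly factors 6.47 (8 genes). The lower end of the range, the median member and the N module median include genes listed at 0, which give no expression level. Without NDUFA6 and NDUFA7 the N module median was 17.2 RPKM, with NDUFS1 still counted at 0. Its order relative to the proximal arm therefore depends on these genes. Within the N module, NDUFV1, which binds NADH, was at 24.4 RPKM and its partner NDUFV2, an iron-sulfur protein, at 1.57 RPKM. Merged exon length counts rare long isoforms, so levels of genes with long merged exons, such as NDUFB9, are understated relative to others. The exon length of a gene is the same in every group, and none of the comparisons below uses levels per length.

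In adherent cells after the knockdown of σ1R, the share of members called lower in the main fit was somewhat above that of all genes. The share called higher was below it. The proximal arm (33.3% called lower) and the distal arm (36.4%) lay near the share of all genes, and no module was tested against another. Of the 45 tested members, 16 were called lower (35.6%), against 27.7% of all 13764 genes tested, and 2 were called higher (4.44%), against 22.3%. The median log2 fold change was -0.18 over the members and -0.01 over all genes. The N module contributed 0 of 8 tested to the lower calls in edgeR and in DESeq2 (2 had an unadjusted p under 0.05), the Q module 3 of 6, the proximal arm 3 of 9, the distal arm 4 of 11, the NDUFAF factors 4 of 8, and NDUFAB1 and NDUFA4 the remainder. The libraries hold RNA of whole cultures, so that a change in every cell and a change in a part of the cells cannot be told apart. Leaving out shSigma replicate 1 gave 10 members called lower, and leaving out shSigma replicate 3 gave 4 called higher.

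NDUFB9, an accessory subunit of the distal arm, had the lowest log2 fold change of the called members. It was at 74.2, 77.1 and 87.4 CPM in the adherent shSigma libraries and at 181, 151 and 144.5 CPM in the shCtrl libraries. The highest shSigma library lay well below the lowest shCtrl library. The log2 fold change was -1.06 ± 0.11 (SE), with an adjusted p of 0.000181. NDUFB1, a small subunit of the distal arm, was at 49.8, 48.0 and 53.0 CPM against 103.9, 84.7 and 79.9 CPM, again without overlap, with a log2 fold change of -0.90 ± 0.12 (adjusted p = 0.000548). NDUFB8 fell by 0.62 and NDUFB10 by 0.30 on the log2 scale, whereas NDUFB3, NDUFB5, NDUFB6 and NDUFB11 of the same arm lay between -0.18 and -0.07 and did not pass the test.

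NDUFS5 led the proximal arm. It stood at 57.0, 58.1 and 74.5 CPM in adherent shSigma against 136.7, 106.4 and 101.2 CPM in shCtrl libraries (log2 fold change -0.93 ± 0.15, adjusted p = 0.00213). The groups did not overlap. NDUFC1 and NDUFA1, small membrane-spanning subunits, fell by 0.46 and 0.48 on the log2 scale. NDUFA8 and NDUFA10 were at 0.05 and 0.01 log2 and did not pass the test.

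In the Q module the core subunits had unlike values. NDUFS3 was at 8.57, 8.45 and 8.15 CPM in adherent shSigma and at 14.2, 12.4 and 11.3 CPM in shCtrl libraries, a log2 fold change of -0.65 ± 0.13 (adjusted p = 0.00477). The iron-sulfur proteins NDUFS7 and NDUFS8 were at 0.31 ± 0.65 and 0.26 ± 0.36 log2, and their errors left either direction possible. NDUFA5, an accessory subunit of the module, rose by 0.44 ± 0.11 log2, from 59.0 to 75.9 CPM in shCtrl libraries to 88.7 to 103 CPM in shSigma libraries (adjusted p = 0.0132).

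In the N module NDUFV3, which is attached to the NADH-oxidising tip, rose by 0.30 ± 0.07 log2 (adjusted p = 0.0106), with 63.8 to 74.7 CPM against 51.3 to 54.0 CPM. The core subunits NDUFV1 and NDUFV2 were at -0.08 ± 0.27 and -0.07 ± 0.17 log2. NDUFS4, an accessory subunit, was at -0.35 ± 0.13 with an adjusted p of 0.0540. With a trend on GC content taken out of each library, an alternative added after the data were seen, NDUFS4, NDUFS6 and NDUFV1 were called lower in adherent cells (adjusted p = 0.0331, 0.0129 and 0.0439), and NDUFS4 was also called without the filter on low counts and without shSigma replicate 3 or shCtrl replicate 3, so the count of 0 for the module depends on these settings.

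**Figure D1:**
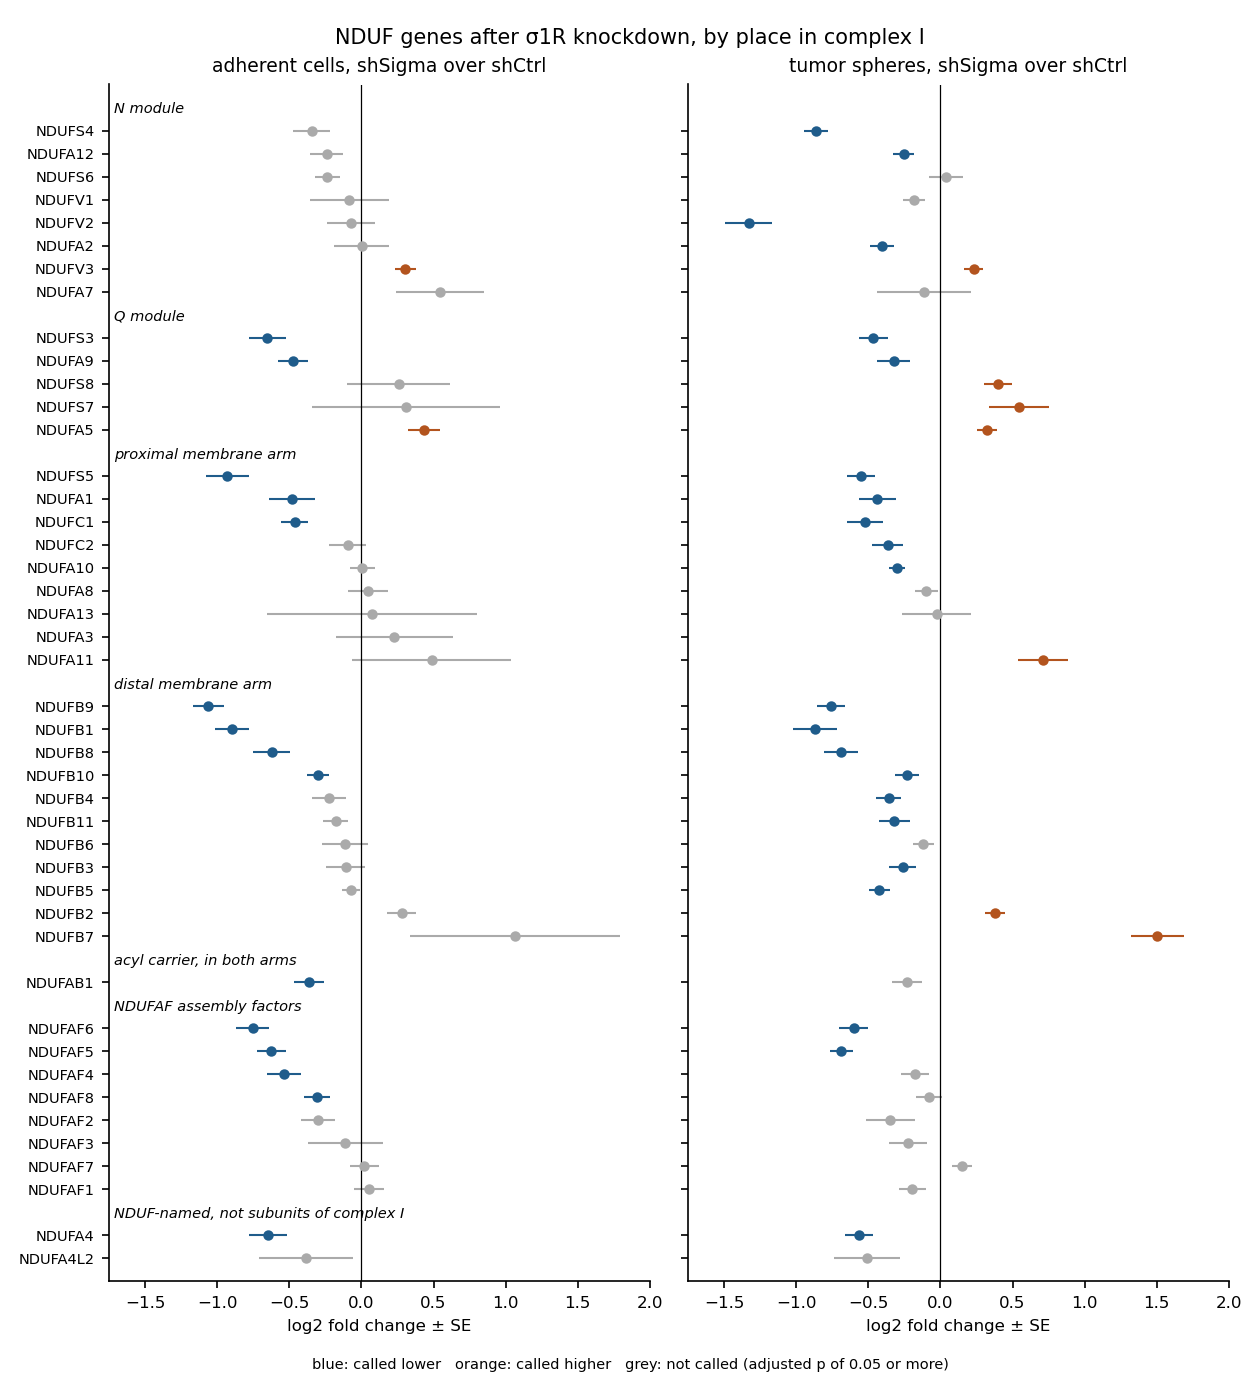
Log2 fold change ± SE of each tested NDUF gene in shSigma over shCtrl cells (horizontal axis), for adherent cells (left) and tumor spheres (right), 3 libraries per group, genes grouped by place in complex I. Blue points are called lower and orange points called higher; 1 tested gene is not drawn, and NDUFB9 and NDUFV2 are the lowest points of the left and the right panel, at -1.06 and -1.33.

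In tumor spheres more members passed the test in both directions. Of 44 tested, 22 were called lower (50%), against 30.9% of 13774 genes, and 7 higher (15.9%), against 30.2%. The median was -0.26 over the members and 0.00 over all genes. The distal arm had 8 lower and 2 higher of 11, the proximal arm 5 lower and 1 higher of 8, the N module 4 lower and 1 higher of 8, and the Q module 2 lower and 3 higher of 6. Among the NDUFAF factors 2 of 8 were lower. A fit of all 12 libraries together kept 3 of the 7 higher calls (NDUFA5, NDUFV3 and NDUFB2).

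NDUFB1 fell in spheres as well, from 73.2, 121 and 86.9 CPM in shCtrl to 51.0, 52.0 and 51.0 CPM in shSigma libraries. The shSigma libraries lay within 1 CPM of each other and below every control library. The log2 fold change was -0.87 ± 0.15 (adjusted p = 0.000844). NDUFB9 fell by 0.76 ± 0.10 and NDUFB8 by 0.69 ± 0.12 log2. NDUFB7, by contrast, an accessory subunit of the distal arm on the intermembrane side, rose by 1.51 ± 0.18 log2 (adjusted p = 8.1e-05). It was at 68.4, 56.6 and 45.0 CPM in shSigma spheres and at 23.6, 15.0 and 21.2 CPM in shCtrl spheres, without overlap.

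NDUFA11 of the proximal arm was at 31.2, 25.7 and 23.2 CPM in shSigma and at 18.6, 11.8 and 18.4 CPM in shCtrl spheres (log2 fold change 0.71 ± 0.18, adjusted p = 0.00613). The groups did not overlap. NDUFS7 was at 47.1, 31.0 and 26.5 CPM against 28.7, 19.9 and 23.2 CPM, which overlap, and its log2 fold change of 0.54 ± 0.21 was called narrowly (adjusted p = 0.0468). That call was lost with DESeq2, its size factors, upper-quartile scaling, no filter on low counts, the GC trend or a joint fit of all libraries. It was also lost without shSigma replicate 1 and without any single shCtrl replicate. NDUFS8 rose by 0.40 ± 0.10 log2. In the same module NDUFS3 fell by 0.46 ± 0.10 log2, so core subunits of the Q module were called in both directions.

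The share of members called lower in both cultures lay near that of all genes on the sphere list and above it on the adherent list, a difference that was not tested. Of the 16 members called lower in adherent cells, 12 were called lower in spheres (75% of the adherent list, 54.5% of the sphere list), where over all genes 2369 of 3813 were (62.1% and 55.7%). These 12 were NDUFB1, NDUFB8, NDUFB9 and NDUFB10 of the distal arm, NDUFA1, NDUFC1 and NDUFS5 of the proximal arm, NDUFA9 and NDUFS3 of the Q module, NDUFAF5, NDUFAF6 and NDUFA4. Both members called higher in adherent cells, NDUFA5 and NDUFV3, were called higher in spheres. The libraries of both cultures came from the same hairpins, so the 2 lists are not independent.

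**Figure D2:**
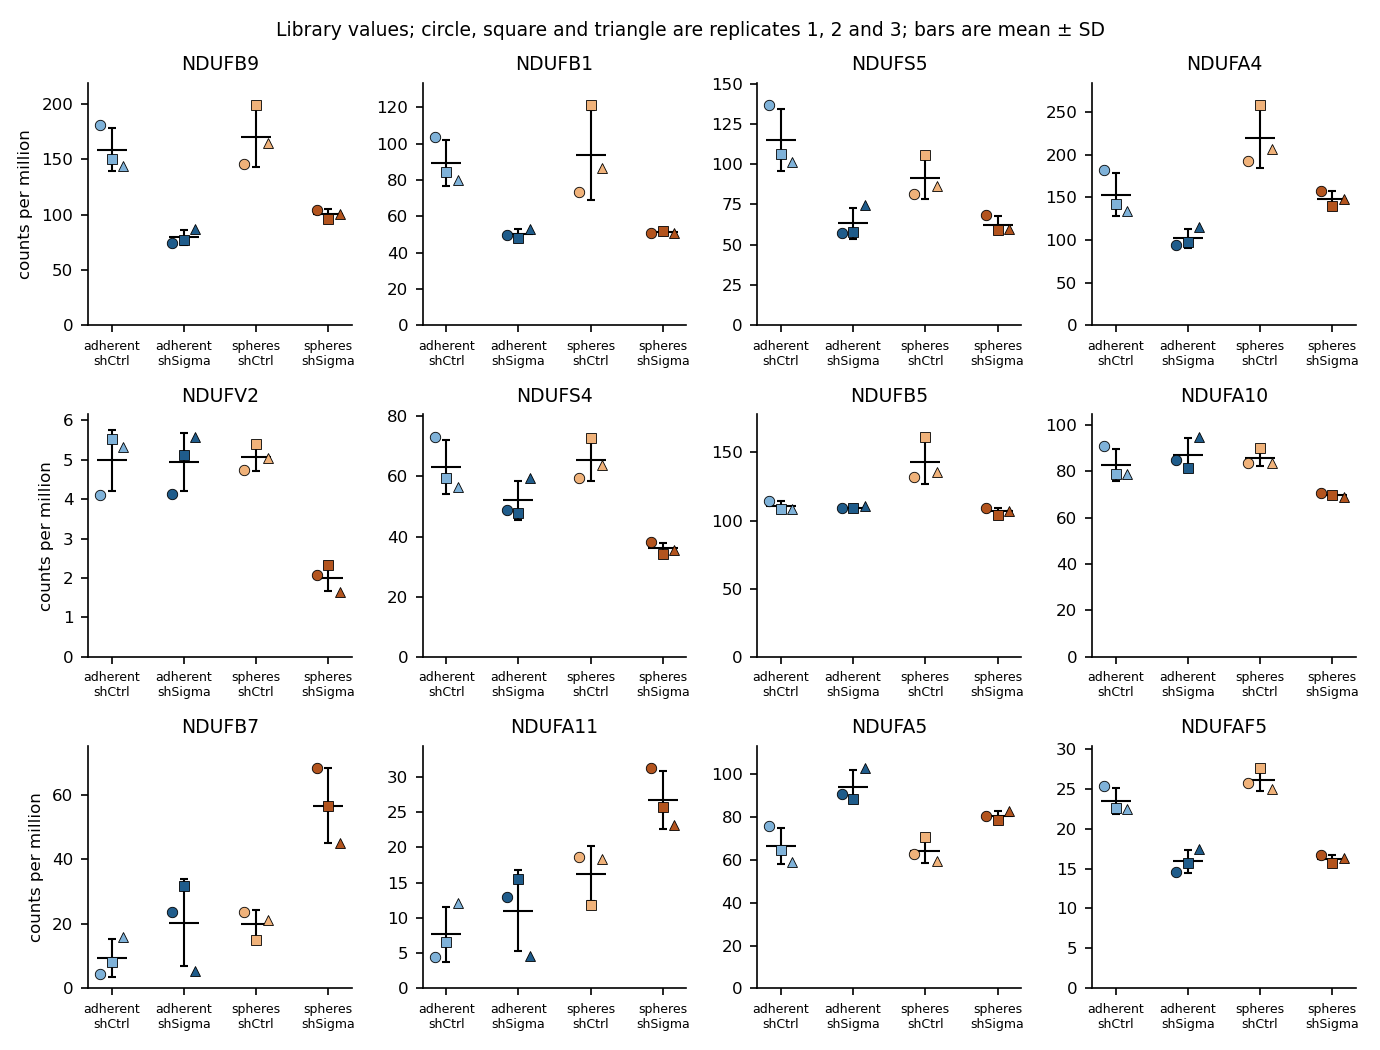
Values in CPM (vertical axes, from 0) of 12 NDUF genes in each library of the 4 groups, with the mean ± SD of 3 libraries; circle, square and triangle are replicates 1, 2 and 3. In the top row shSigma lies below shCtrl in both cultures. In the middle row the shSigma spheres lie lowest for NDUFV2 (1.64 to 2.33 CPM), NDUFS4 and NDUFA10. For NDUFB5 they overlap the adherent libraries, and the shCtrl spheres lie above all others. NDUFB7 and NDUFA11 are highest in shSigma spheres.

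The knockdown effect differed between cultures for a few members. The interaction of hairpin and culture in 1 fit of all 12 libraries, expressed as the effect in spheres minus the effect in adherent cells, called 4 members negative (9.09% of 44), against 15.6% of 14175 genes, and 0 members positive (0 also at an unadjusted p under 0.05 and in DESeq2), against 12.7%. Both shares were under those of all genes, a difference that was not tested. Leaving out any of 5 libraries (adherent shSigma 3 or shCtrl 2, spheres shSigma 2 or 3 or shCtrl 2) took the calls of NDUFS4 and NDUFA10 away, and without adherent shCtrl 2 or spheres shSigma 2 or 3 only 2 members, NDUFV2 and NDUFB5, stayed called. Among removals of a single library, NDUFA10 kept its call only without adherent shSigma 2 or adherent shCtrl 1. The call of NDUFA10 was also lost with no filter on low counts.

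NDUFV2 showed the largest of these differences. It was at 2.07, 2.33 and 1.64 CPM in shSigma spheres and at 4.74, 5.41 and 5.04 CPM in shCtrl spheres, and at 4.14, 5.12 and 5.59 CPM in adherent shSigma and 4.11, 5.54 and 5.32 CPM in adherent shCtrl libraries. The 3 shSigma sphere libraries were below all the other 9. The fold change was -1.33 ± 0.17 log2 in spheres (adjusted p = 2.8e-05) and the interaction -1.32 ± 0.24 log2 (adjusted p = 0.00113). NDUFV2 (chr18:9102630-9134345, plus strand) rested on 31 to 135 counts per library, has an annotated pseudogene and overlaps its antisense gene NDUFV2-AS1, and the way reads of such places were counted is not stated.

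NDUFS4 (chr5:53560633-53683338, plus strand) was at 38.2, 34.3 and 35.6 CPM in shSigma spheres against 59.6, 72.9 and 63.8 CPM in shCtrl spheres, a log2 fold change of -0.86 ± 0.08 (adjusted p = 2.6e-06). The adherent shSigma libraries, at 48.8, 47.8 and 59.6 CPM, overlapped their controls, at 73.3, 59.6 and 56.4 CPM, and the interaction was -0.58 ± 0.16 (adjusted p = 0.0148). NDUFB5 of the distal arm was at 109.5, 104.2 and 107.0 CPM in shSigma spheres and at 132, 162 and 135.6 CPM in shCtrl spheres, while all 6 adherent libraries held 108 to 114.6 CPM. Its interaction was -0.41 ± 0.10 log2 (adjusted p = 0.00848). NDUFA10, a proximal arm subunit, had an interaction of -0.37 ± 0.11 (adjusted p = 0.0177), with 68.7 to 70.5 CPM in shSigma spheres below the 78.8 to 95.0 CPM of the other 9 libraries.

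Among the 8 NDUFAF assembly factors, NDUFAF5, a modifying enzyme of NDUFS7, and NDUFAF6 fell in both cultures. NDUFAF5 was at 14.6, 15.7 and 17.5 CPM in adherent shSigma against 25.3, 22.6 and 22.5 CPM in shCtrl libraries, and at 16.7, 15.7 and 16.4 against 25.8, 27.6 and 24.9 CPM in spheres. The 6 shSigma libraries lay below all 6 controls. The log2 fold changes were -0.63 ± 0.10 and -0.69 ± 0.08 (adjusted p = 0.00161 and 1.5e-05). NDUFAF6 fell by 0.76 ± 0.11 and 0.60 ± 0.10 log2. NDUFAF4 (-0.54) and NDUFAF8 (-0.31), a factor that works with NDUFAF5, were called lower in adherent cells, and in spheres were at -0.18 and -0.08 with adjusted p of 0.131 and 0.473. The adherent call of NDUFAF8 was lost with DESeq2, upper-quartile scaling, no filter on low counts, the GC trend or a replicate block, and in 5 of the 6 removals of a single library (all but that of shCtrl replicate 3). NDUFAF1, NDUFAF2, NDUFAF3 and NDUFAF7 passed the test in neither culture, with log2 fold changes from -0.35 to 0.15.

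As medians, the NDUFAF factors were at -0.31 log2 in adherent cells and -0.21 in spheres, and the 37 subunits, of which 35 and 34 were tested, at -0.11 and -0.26. In adherent cells the median of the distal arm was -0.18, of the N module -0.08, of the Q module -0.07 and of the proximal arm 0.01. In spheres they were -0.32, -0.22, 0.12 and -0.34. Placing NDUFA6 and NDUFA7 in the Q module and NDUFA9 in the proximal arm, as other schemes do, gave Q module medians of 0.28 and 0.12 and proximal arm medians of -0.04 and -0.33. The 6 tested core subunits, which bind the cofactors, had 2 called lower in adherent cells (33.3%, against 27.7% of all genes). In spheres 2 of them were called lower and 2 higher (33.3% each, against 30.9% and 30.2% of all genes). These shares are near those of all genes. These are counts and medians of small lists, and no difference between them was tested.

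Of 15 further assembly factors without the NDUF name, 8 fell and 1 rose in adherent cells (27.7% of all genes tested were called lower and 22.3% higher), and in spheres 8 fell and 2 rose (30.9% and 30.2%). NUBPL, which inserts iron-sulfur clusters into complex I, had the lowest value in adherent cells (-0.62 log2, adjusted p = 0.000750), and TMEM126A, a factor for the membrane arm, in spheres (-0.49, adjusted p = 0.00106).

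The 7 complex I subunits encoded by mitochondrial DNA did not follow the NDUF genes in spheres. In adherent cells 0 of 7 were called by edgeR, with log2 fold changes from -0.20 to 0.44 (1, MT-ND6, had an unadjusted p under 0.05 and was called higher by DESeq2). In spheres 6 of 7 were called higher, against 30.2% of all genes, with a median of 0.63. MT-ND2, a membrane arm subunit, was at 5298, 6022 and 5768 CPM in shSigma spheres and at 3006, 3403 and 2959 CPM in shCtrl spheres. The groups were far apart, and the log2 fold change was 0.86 (adjusted p = 1.8e-06). MT-ND6, named after its values were seen, was at 0.01 log2 in spheres. The interaction was called positive for 5 of the 7, against 12.7% of all genes. The shCtrl cells also differed between cultures. In them 4 of the 7 were called lower in spheres than in adherent cells, against 26.3% of all genes, with a median of -0.52 log2. In shSigma cells 0 were called lower and 1 higher, against 25.2% and 21.9%, with a median of 0.21.

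Many nuclear subunits of complexes III to V were called lower in both cultures, where 27.7% of all genes were lower in adherent cells and 30.9% in spheres. Complex III had 6 lower of 8 tested in adherent cells and 7 in spheres, complex IV 8 and 7 lower of 10, and ATP synthase 8 lower of 15 in each, with 3 higher in spheres. Their medians were -0.57, -0.55 and -0.30 log2 in adherent cells and -0.48, -0.58 and -0.21 in spheres. NDUFA4, the cytochrome c oxidase component, was at 94.2, 97.6 and 114.8 CPM in adherent shSigma against 182, 142.5 and 134.6 CPM in shCtrl libraries, and its log2 fold changes of -0.65 ± 0.13 and -0.56 ± 0.10 are to be read beside the complex IV medians. Complex II, which has no mitochondrially encoded subunit, had 1 lower (SDHB) and 1 higher (SDHC) of 4 in adherent cells and 3 lower in spheres. Of 10 nuclear regulators of respiratory genes, 9 were tested, and 3 of these passed as lower in adherent cells. In spheres 2 were called lower and 3 were called higher (22.2% and 33.3%, against 30.9% and 30.2% of all genes). TFAM, which maintains and transcribes mitochondrial DNA, fell by 0.57 log2 in spheres (adjusted p = 4.0e-06), and PPARGC1B, a coactivator, by 0.86 log2 in adherent cells (adjusted p = 0.000841). The 3 higher in spheres, named after their values were seen, were ESRRA, PPRC1 and NRF1 (0.48, 0.25 and 0.24 log2, adjusted p = 0.00461, 0.00808 and 0.0301).

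Several members changed together with the genes around them. For each member, the 40 tested genes nearest to it on its chromosome were taken, and the median of their log2 fold changes in the same fit was set beside the member's own. All 7 members called higher in spheres had neighbours with a median above 0, and for 5 of them (NDUFA5, NDUFB2, NDUFS7, NDUFS8 and NDUFV3) that median was over 0.5 times the member's own value. The neighbours of NDUFA5 stood at 0.56 in adherent cells and 0.52 in spheres, beside 0.44 and 0.32 for the gene itself. Among members called lower, NDUFB9 and NDUFAF6 had neighbours at -0.54 and -0.59 in adherent cells and at -0.53 and -0.53 in spheres. NDUFS5 had neighbours at -0.52 in adherent cells and -0.11 in spheres. For the 16 members lower in adherent cells the median of the neighbour medians was -0.02, and for the 22 lower in spheres -0.03. The neighbour median was below 0 for 8 of the 16 and for 12 of the 22. The copy number of these regions was not analysed here, and its part in the result was not tested.

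**Figure D3:**
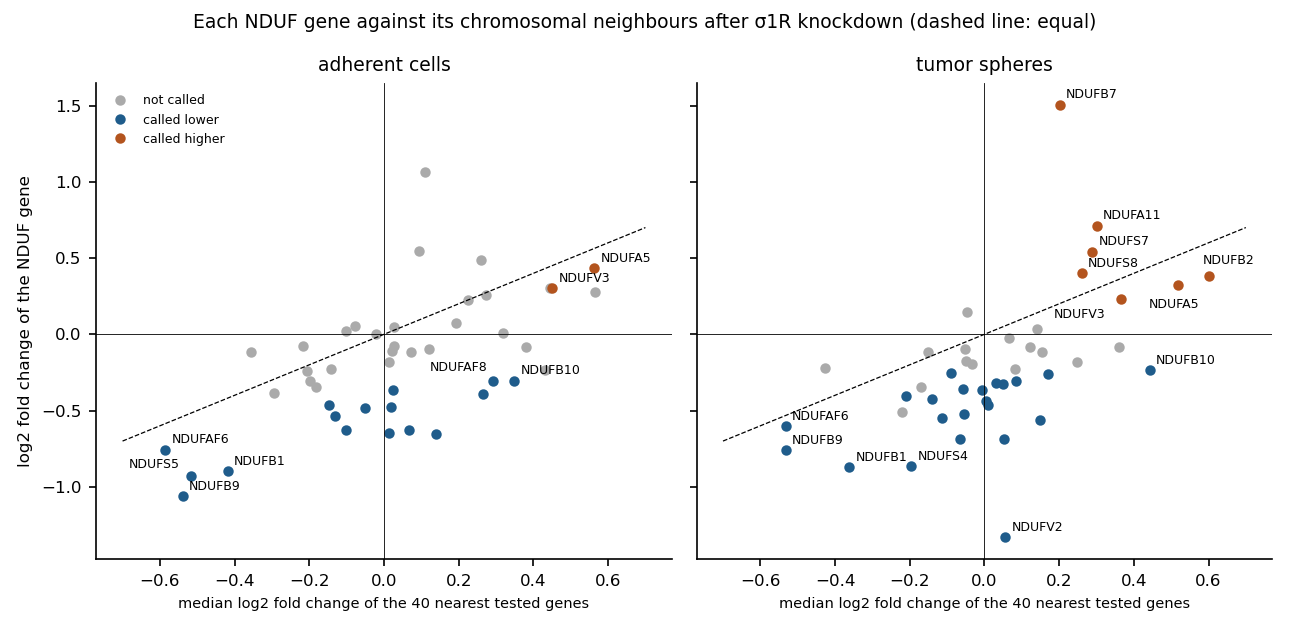
Log2 fold change of each tested NDUF gene after σ1R knockdown (vertical axis) against the median of the 40 tested genes nearest to it (horizontal axis), in adherent cells (left) and spheres (right), with a dashed line of equality. NDUFA5 and NDUFV3 lie near the line in both panels, while NDUFV2 and NDUFB7 lie far from it with neighbours at 0.06 and 0.20 in spheres.

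GC content moved with a set of the members. GC content here is that of the longest annotated transcript of each gene. In the adherent libraries, genes deviated from their group mean along it, in opposite directions in replicates of the same group (r of -0.68 in shCtrl replicate 1 and 0.72 in replicate 3, 0.63 in shSigma replicate 2 and -0.69 in replicate 3, over 14060 genes). In shCtrl cells NDUFA13, NDUFS7, NDUFB7 and NDUFA11, at 60.8 to 64.9% GC, were 2.75 to 4.15 times as high in replicate 3 as in replicate 1, and in shSigma cells 0.229 to 0.353 times. Across 44 members the correlation of GC content with the log2 ratio of replicate 3 to replicate 1 was 0.68 in shCtrl and -0.65 in shSigma cells. NDUFAF8 at 63.0% GC (0.926 and 1.01 times) and NDUFA4L2 at 64.6% (1.501 and 0.743 times) lie in that GC range with ratios nearer to 1. NDUFB7 was at 4.38, 8.25 and 15.97 CPM in adherent shCtrl and at 23.8, 31.9 and 5.45 CPM in adherent shSigma libraries, and its log2 fold change of 1.06 ± 0.73 was not called, and the part of GC content in it was not tested. In spheres the r of single libraries stayed between -0.42 and 0.34. Across the tested members, GC content correlated with the knockdown log2 fold change at 0.37 in adherent cells and 0.43 in spheres. After a GC trend was taken out these were 0.00 and 0.24. The 7 members called higher in spheres had a median GC content of 57.9%, and the 22 called lower 43.8%. The part of GC content in these calls was not tested. With a GC trend taken out of each library, added after the data were seen, NDUFB7 rose by 1.21 and NDUFA11 by 0.48 log2 in spheres and stayed called, NDUFS7 at 0.37 lost its call (adjusted p = 0.0919), while in adherent cells 18 members were called lower and 3 higher, and in spheres 24 and 7.

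**Figure D4:**
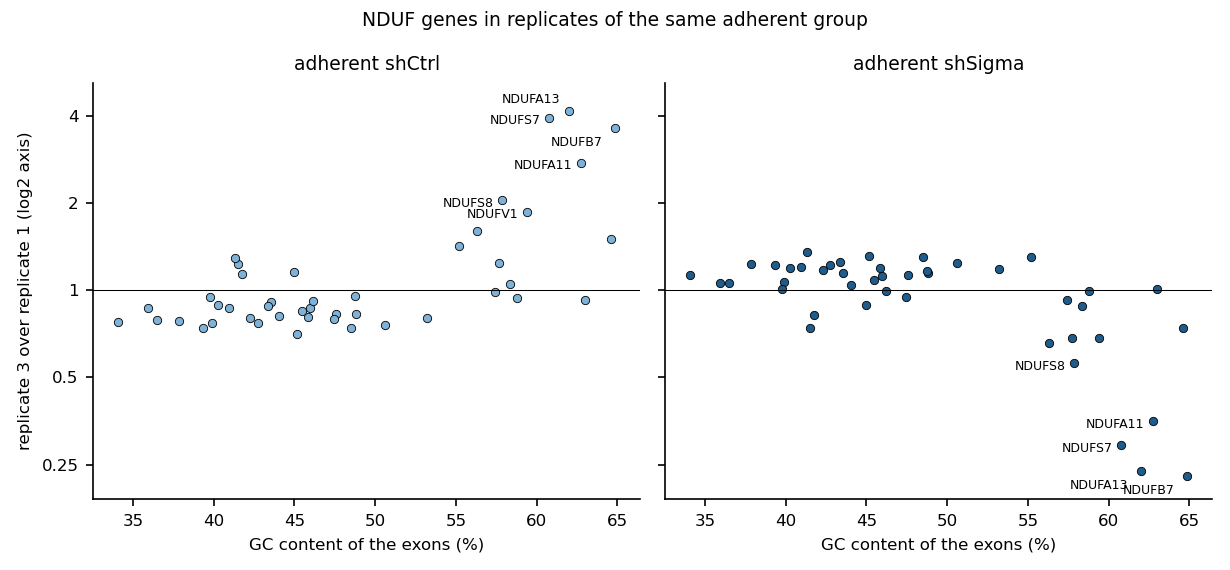
Ratio of replicate 3 to replicate 1 (vertical axis, log2 scale) against GC content (%) for 44 NDUF genes in adherent shCtrl (left) and adherent shSigma cells (right). The GC content, labelled on the axis as that of the exons, is that of the longest annotated transcript. Genes under 55% GC lie between 0.704 and 1.35, and NDUFB7 at 64.9% GC is at 3.65 in shCtrl and 0.229 in shSigma cells.

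Spheres were also compared with adherent cells within each hairpin. In shCtrl cells 2 of 44 members were called lower in spheres (4.55%), against 26.3% of 13800 genes, and 14 higher (31.8%), against 27.4%. The median was 0.23 over the members and 0.04 over all genes. In shSigma cells 5 were lower (11.4%), against 25.2% of 13622 genes, and 10 higher (22.7%), against 21.9%, with medians of 0.16 and 0.00. The shares called higher were near those of all genes in both. The 2 knockdown comparisons share their libraries with these and give no separate evidence.

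NDUFA4L2, a paralogue of NDUFA4 known to respond to low oxygen, had the highest log2 fold change of the called members in shCtrl cells. It was at 2.34, 1.60 and 2.42 CPM in spheres and at 0.499, 0.973 and 0.749 CPM in adherent cells (log2 fold change 1.52 ± 0.29, adjusted p = 0.00282), and in shSigma cells it rose by 1.36 ± 0.26. With the GC trend taken out the values were 0.82 and 0.74, and in shSigma cells NDUFA11 (0.83) and NDUFB2 (0.80) were then higher. NDUFA4L2 had 10 to 48 counts per library. NDUFA4 rose by 0.52 and 0.56 log2. NDUFB2 of the distal arm rose from 29.8, 31.2 and 34.6 to 46.9, 52.3 and 49.2 CPM in shCtrl cells and from 41.3, 43.0 and 36.7 to 69.6, 60.4 and 63.6 CPM in shSigma cells, log2 fold changes of 0.63 ± 0.09 and 0.70 ± 0.09 without overlap of the groups. NDUFS3 rose by 0.47 ± 0.12 and 0.62 ± 0.11 log2.

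NDUFA2, an accessory subunit of the N module, was at 63.9, 75.4 and 69.8 CPM in shCtrl spheres against 34.2, 35.5 and 42.6 CPM in adherent shCtrl libraries (log2 fold change 0.89 ± 0.11, adjusted p = 0.000256). NDUFA11 rose by 1.09 ± 0.37 in shCtrl cells, with overlapping groups. Its call was lost with DESeq2 size factors, no filter on low counts, a joint fit of all libraries or an adjusted p under 0.01. The same held without adherent shCtrl replicate 2 or sphere shCtrl replicate 1 or 3. NDUFAF7, a methyltransferase that acts on complex I, fell by 0.31 ± 0.10 log2 in shCtrl and 0.22 ± 0.07 in shSigma cells. With the GC trend taken out it was at -0.15 and -0.11 (adjusted p = 0.108 and 0.141), and both calls were also lost with upper-quartile scaling. The members that fell in shSigma spheres included NDUFV2 (-1.27 ± 0.18), NDUFS4 (-0.51 ± 0.08) and NDUFA10 (-0.30 ± 0.06), whose interactions are given above.

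These differences between cultures correlated with GC content, and the counts of calls changed with a GC trend taken out and with single libraries left out. Across 44 members the correlation of GC content with the log2 fold change was 0.67 in shCtrl and 0.65 in shSigma cells. After the GC trend was taken out it was 0.02 and 0.33. The part of GC content in these differences was not tested. With the GC trend taken out, members called lower and higher were 1 and 18 in shCtrl and 3 and 16 in shSigma cells, and NDUFAF8 went from 0.41 to -0.24 log2 in shCtrl cells and NDUFB10 from 0.27 to -0.01 in shSigma cells, both then without a call. Leaving out adherent shCtrl replicate 2 gave 7 called higher in shCtrl cells, leaving out sphere shCtrl replicate 3 gave 8, and leaving out adherent shSigma replicate 3 gave 20 in shSigma cells. Among the sphere shCtrl libraries replicate 2 was the highest of its group for 35 of 44 members.

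**Figure D5:**
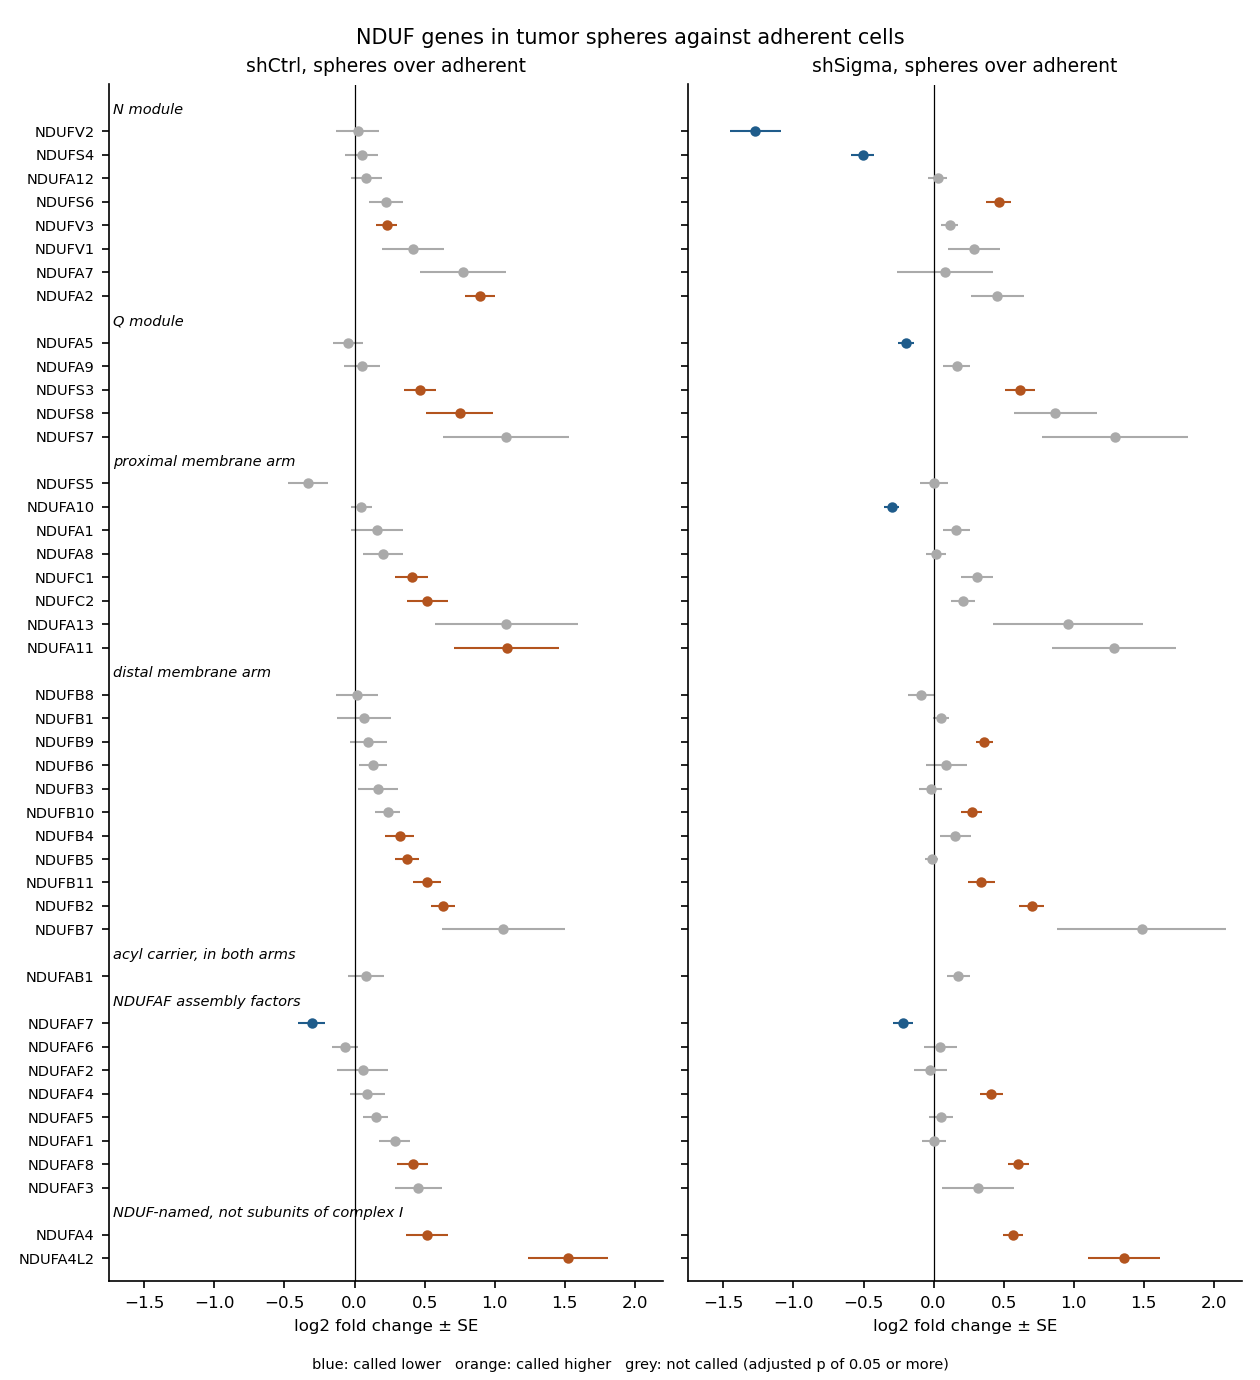
Log2 fold change ± SE of each tested NDUF gene in tumor spheres over adherent cells (horizontal axis) in shCtrl (left) and shSigma cells (right), 3 libraries per group, genes grouped by place in complex I. Blue points are called lower and orange points called higher, and 1 tested gene is not drawn. NDUFA4L2 has the highest called value in both panels, at 1.52 and 1.36.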

How the data were processed

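RNA of DU145 cells was sequenced in 12 libraries (directional kit, 800 ng total RNA, single-end 75 nt reads). The authors aligned the reads to GRCh38.p12 with STAR (2.6.1c, per the labels) and deposited raw counts per gene, without normalization. The annotation, whether strand was used and how multiply aligned reads were counted are not given in the sources used here. All 12 count columns were used. Symbols, positions and merged exons came from GENCODE release 44, and members were all protein-coding symbols starting with NDUF.

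From the deposited counts, CPM, RPKM, fold changes and p-values were computed with edgeR 4.0.16 and R 4.3.3: TMM scaling, filterByExpr (minimum count 10), robust quasi-likelihood test, two-sided, Benjamini-Hochberg adjustment over all genes tested, prior count 0.125. Each comparison was fitted on its 6 libraries and the interaction on all 12. The p-values measure the spread between libraries of 1 cell line. Counting error at the depths above affects only members with few counts. Modules and the other gene lists were written by hand from textbook knowledge, and the members and lists were chosen with earlier results of these data known. Library values were planned for the 3 highest and 3 lowest called members of each comparison, the 3 largest called interactions and some core subunits and assembly factors. Some of these have only ranges or fold changes in the text. The fits were tested on simulated counts. Alternatives were DESeq2 1.42.0, its size factors, upper-quartile scaling, no filter, a minimum of 10 counts in each library, a joint fit of all libraries, an adjusted p under 0.01, a replicate block and each library left out. A GC trend per library (lowess) and the joint removal of 2 adherent libraries were added after the data were seen. Figures used Python 3.11.15, pandas 2.3.3 and matplotlib 3.10.9. Some genes, the targeted gene among them, are not reported by name here, though counts over the lists include them.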

Additional observations from a re-analysis of the deposited data

Results flagged for a closer look

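The effect of the knockdown differed between tumor spheres and adherent cells for 4 members by the interaction term of edgeR's fit of all 12 libraries. The difference, spheres minus adherent cells, was -1.32 log2 for NDUFV2, -0.583 for NDUFS4, -0.41 for NDUFB5 and -0.374 for NDUFA10. After subtraction of a GC trend the values were -1.34, -0.60, -0.43 and -0.37, and all 4 stayed called. With single libraries left out, NDUFA10 lost its call in most removals and NDUFS4 in several. NDUFV2 rested on 31 to 135 counts per library. The medians of their 40 nearest tested genes were 0.05, -0.07, -0.05 and -0.08 log2.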

How the results depend on the processing

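With single libraries left out, the median log2 fold change of the members ran from -0.201 to -0.118 (adherent knockdown, -0.118 without shCtrl 2), -0.315 to -0.231 (sphere knockdown), 0.132 to 0.26 (culture in shCtrl, 0.132 without sphere shCtrl 2) and 0.128 to 0.211 (culture in shSigma). Of 206 summary values recomputed, 29 counts moved by over 1.5 times. For knockdown in adherent cells, 16 lower and 2 higher became 10 to 17 and 2 to 4 with single libraries left out, 1 higher with a replicate block and 0 higher at an adjusted p under 0.01. For spheres, 22 lower and 7 higher became 17 to 26 and 6 to 7 with single libraries left out, and 3 higher in 1 fit of all 12 libraries. For spheres against adherent cells in shCtrl, 2 lower and 14 higher became 0 to 3 and 7 to 18 with single libraries left out, 1 lower with upper-quartile scaling, a GC trend or a replicate block, and 0 lower and 6 higher at an adjusted p under 0.01. In shSigma, 5 lower and 10 higher became 3 to 4 and 9 to 20 with single libraries left out. There, 3 were lower with DESeq2, with a GC trend and at an adjusted p under 0.01, and higher calls were 16 with a GC trend, 16 with a replicate block and 20 without adherent shSigma replicate 3 and shCtrl replicate 1. The 4 interactions became 2 to 5 with single libraries left out, 7 with a GC trend and 2 at an adjusted p under 0.01. The cause was not tested. Same-numbered libraries did not deviate together (correlations of -0.82 to 0.38), and not every library correlated best with its own number, so the labels' numbers were not taken as pairs; with a replicate block 11 members were lower in adherent cells, 22 lower and 7 higher in spheres. Of named members under the alternatives, 387 values kept their call, 37 lost it and 0 changed sign. The few reads of NDUFA3, NDUFA7, NDUFA4L2 and NDUFV2 limit their values.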
